A study of Mus musculus with 10 samples.

Results

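The inhibitory receptors of B cells and the phosphatases that carry their signal were followed in germinal center B cells with and without ZBTB38, a zinc finger transcription factor of the BTB family. The 10 genes were chosen by name and known function: the receptors Cd22, Siglecg, Cd72, Fcgr2b, Pirb, Fcrl1 and Fcrl5 and the phosphatases Ptpn6, Inpp5d and Ptpn22. They are 10 of the 22380 genes quantified, and all 10 passed the filter on low counts in every comparison. The libraries came from germinal center B cells (GL7+IgD-) that bound the hapten NP, sorted 2 weeks after C57Bl6/N mice received NP-OVA in alhydrogel by intraperitoneal injection, with 1 library per mouse. ZBTB38 WT mice (n = 2) were Zbtb38fl/fl without Cre, ZBTB38 HET mice (n = 2) were Zbtb38fl/+ x Vav-Cre, and ZBTB38 KO mice (n = 6) were Zbtb38fl/fl x Vav-Cre. The labels call the cells untreated, and the immunization is described in the study's methods. Ages and sexes were not given in the sources used here. The floxed allele descends from a single founder made in C57Bl6/J zygotes and bred to C57Bl6/N, and littermates were used as controls. Vav-Cre is known to act throughout the hematopoietic system, in T cells and myeloid cells as well as in B cells. Because the WT mice lack Cre and the KO mice carry it, an effect of Cre and an effect of the deletion cannot be told apart between WT and KO.

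Antigen binding makes the B cell receptor signal through tyrosine phosphorylation and through the lipid that phosphoinositide 3-kinase makes, and inhibitory receptors cut both short. Most of them carry an immunoreceptor tyrosine-based inhibitory motif (ITIM) in the cytoplasmic tail. The kinase LYN phosphorylates the tyrosine of this motif, which then binds SHP-1, the tyrosine phosphatase encoded by Ptpn6, or SHIP-1, the inositol lipid phosphatase encoded by Inpp5d. Germinal center B cells are known for damped antigen receptor signaling with high phosphatase activity, and mice that lack Lyn, Ptpn6, Fcgr2b or Siglecg have overactive B cells or autoantibodies.

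The ITIMs through which these receptors act were read from the Gencode coding sequence of the most abundant full-length transcript of each gene. The motif searched in the translated frame was isoleucine, leucine, valine or serine, then any residue, tyrosine, any pair of residues, and isoleucine, leucine or valine. Each line below gives the codons of the motif from 5′ to 3′, in GRCm38, with the tyrosine codon in capitals, and the motifs shown are those on the cytoplasmic side of the membrane span that define each receptor as inhibitory.
Cd22 tyrosine 783 (chr7:30867494-30867511, minus strand, exon 13 of 15): gttagtTATgccatcttg
Cd22 tyrosine 843 (chr7:30866600-30866617, minus strand, exon 15 of 15): atccatTACtcagagctg
Cd22 tyrosine 863 (chr7:30866540-30866557, minus strand, exon 15 of 15): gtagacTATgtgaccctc
Siglecg tyrosine 659 (chr7:43417979-43417996, plus strand, exon 12 of 12): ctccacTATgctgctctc
Cd72 tyrosine 7 (chr4:43454498-43454515, minus strand, exon 1 of 8): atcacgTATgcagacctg
Fcgr2b tyrosine 272 (chr1:170961071-170961088, minus strand, exon 7 of 7): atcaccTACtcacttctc
Pirb tyrosine 794 (chr7:3712786-3712803, minus strand, exon 15 of 15): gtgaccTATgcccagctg
Pirb tyrosine 824 (chr7:3712696-3712713, minus strand, exon 15 of 15): agtgtaTATgctactctg
Fcrl5 tyrosine 566 (chr3:87457384-87457401, plus strand, exon 11 of 13): gtgattTACacagaagta

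Cd22 held 4 such motifs (3 of them shown) after its predicted membrane span (a window of 19 residues with a mean hydropathy above 1.8), Siglecg and Pirb 3 each, and Fcgr2b and Fcrl5 1 each. Cd72 is anchored the other way round, with its amino terminus inside the cell, and held 2 motifs before its span. Fcrl1 held 0, and this receptor is known to carry activating rather than inhibitory tyrosines. Inpp5d also held 0. Matches were also found outside the cytoplasmic tails, and 49.2% of 20501 mouse genes with a full coding sequence held at least 1, so a match by itself sets no gene apart. Searches for the switch motif (threonine, any residue, tyrosine, any pair of residues, valine or isoleucine) and for the activating motif (tyrosine, any pair of residues, leucine or isoleucine, repeated after 6 to 12 residues) found 0 in all 10 genes, against 7.88% and 6.47% of all genes. In GRCm38 Cd22, Siglecg and Pirb lie on chromosome 7, Fcrl1, Fcrl5 and Ptpn22 on chromosome 3, Fcgr2b and Inpp5d on chromosome 1, Cd72 on chromosome 4 and Ptpn6 on chromosome 6. None lies on chromosome 9, where Zbtb38 is.

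The libraries held between 26612431 and 41059082 estimated counts. Zbtb38 itself was at 161.7 and 151.8 CPM (estimated counts scaled to a common library size, with TMM normalization) in ZBTB38 WT, at 117.4 and 105.8 in ZBTB38 HET and between 18.6 and 50.3 in ZBTB38 KO, so every library matched its label. Markers of other cells were present in unequal amounts. The sum of 12 myeloid markers was 492 to 625 CPM in WT, 94.9 to 107 in HET and 84.8 to 807 in KO, with 10 of the 12 lower in both HET than in both WT libraries and with S100a8, S100a9 and Fcgr1 at 0 in some libraries. The sum of 10 T cell markers was 295 to 298 CPM in WT, 195 to 199 in HET and 192 to 284 in KO, with 9 of the 10 lower in both HET libraries, and no T cell marker was at 0 in any library. The exception was Lck, which made up most of this sum in every library. Lck was at 160.3 and 167.5 CPM in WT, 171.1 and 164.6 in HET and 126.4 to 220.0 in KO. The sum of 6 naive B cell markers was 1105 to 1155 CPM in WT, 781 to 782 in HET and 684 to 1554 in KO, none at 0, whereas that of 7 germinal center markers was 1970 to 2136 in WT, 2751 to 2879 in HET and 1557 to 3135 in KO. KO replicate 6 had the highest naive sum and the lowest germinal center sum of all libraries. The sum of 6 plasma cell markers was 1379 to 1583 CPM in WT, 1179 to 1270 in HET and 1164 to 1746 in KO, and that of 4 globin genes was at most 96.5 CPM. Follicular dendritic cell markers summed to at most 4.15 CPM and NK cell markers to at most 2.31 CPM.

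The 10 genes differed widely in level, and the order was led by a phosphatase. TPM, a share of all transcripts that accounts for their length, was used for levels between genes. Over the 10 libraries the mean TPM was 870 for Ptpn6, 503 for Cd22, 290 for Siglecg, 285 for Cd72, 150 for Inpp5d, 142 for Fcrl1 and 112 for Fcgr2b. It was 15.8 for Pirb, 14.1 for Ptpn22 and 12.1 for Fcrl5. Ptpn6 exceeded 98.8% of the genes tested in TPM and Fcgr2b exceeded 87.8%, whereas Pirb, Ptpn22 and Fcrl5 lay near the middle, above 52.0%, 49.8% and 47.0% of genes. Ptpn6 was above Cd22, and Cd22 above Siglecg, in 10 of 10 libraries. The order of 4 neighboring pairs was not fixed: Siglecg was above Cd72, Inpp5d above Fcrl1 and Pirb above Ptpn22 in 6 of 10 libraries each, and Ptpn22 was above Fcrl5 in 8 of 10. The step from Fcgr2b down to Pirb was 7.08-fold and held in 10 of 10 libraries. The summed TPM of the 10 genes was 2619 ± 342 (SD, n = 2) in WT, 2416 ± 27.7 (SD, n = 2) in HET and 2312 ± 371 (SD, n = 6) in KO, and the KO libraries, from 1939 to 2785, overlapped both other groups.

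**Figure D1:**
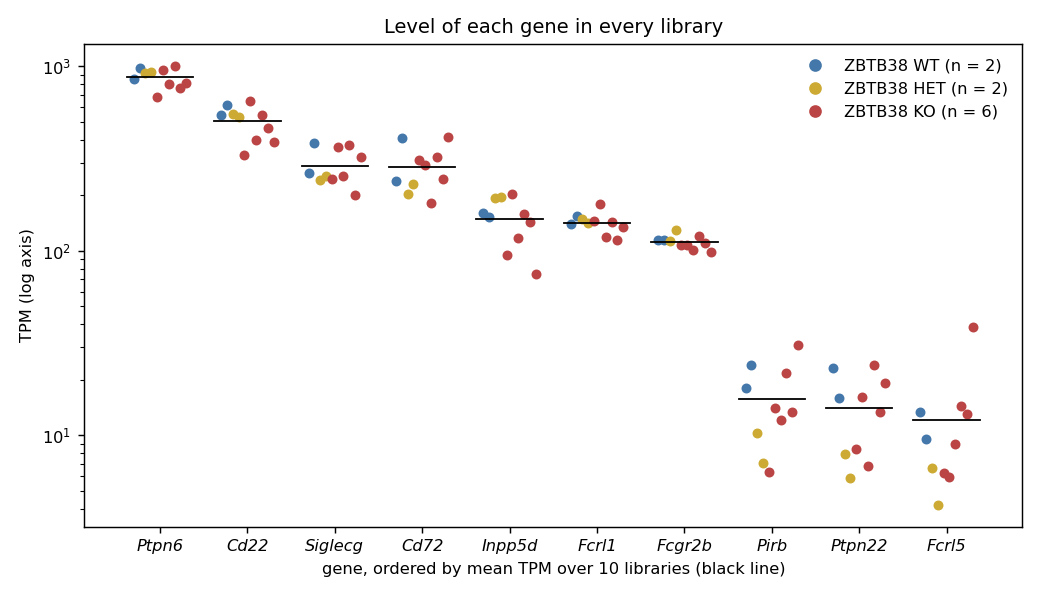
TPM of each gene (log axis) in 10 libraries, with ZBTB38 WT in blue, HET in yellow and KO in red and the mean over all libraries as a black line. Ptpn6 is highest, with a mean of 870 TPM, and Pirb, Ptpn22 and Fcrl5 form a lower group with means of 12.1 to 15.8 TPM.

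CD22 and Siglec-G (encoded by Siglecg) are lectins that bind sialic acid on neighboring proteins and hold the antigen receptor in check. Cd22 was at 1158 and 1316 CPM in ZBTB38 WT, at 1214 and 1132 in HET, and at a lowest, median and highest value of 951, 1026 and 1262 in the 6 KO libraries. Of the 6 KO libraries, 5 lay below all 4 WT and HET libraries, and KO replicate 2 lay above 3 of them, so the groups overlapped. Siglecg was at 451.6 and 640.5 CPM in WT, at 419.8 and 433.3 in HET and at 366, 572 and 656 (lowest, median, highest) in KO. Both HET libraries lay below both WT libraries and within the KO range.

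CD72 binds the semaphorin CD100 and signals through SHP-1, FcγRIIB (Fcgr2b) binds IgG in immune complexes and signals through SHIP-1, and FCRL1 is a B cell surface protein of the Fc receptor-like family. Cd72 was at 232.2 and 384.3 CPM in ZBTB38 WT, at 204.9 and 227.1 in HET and at 194, 282 and 471 (lowest, median, highest) in KO, a KO range that held all 4 other libraries. Fcgr2b was at 111.8 and 109.0 CPM in WT, at 115.8 and 128.8 in HET and at 100, 113 and 134 in KO. Fcrl1 was at 160.1 and 168.9 CPM in WT, at 172.9 and 161.4 in HET and at 139, 168 and 213 in KO. For both genes the KO libraries lay on either side of all WT and HET libraries. Reads of Fcgr2b can be shared with other Fc receptor genes of similar sequence, so its estimated counts are uncertain to that extent.

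Ptpn6, which encodes SHP-1, varied least of the 10 genes. It was at 1236 and 1370 CPM in ZBTB38 WT, at 1319 and 1327 in HET and at 1172, 1287 and 1379 (lowest, median, highest) in KO. The highest library was 1.18-fold above the lowest, and the coefficient of variation among the 6 KO mice was 5.72%. Of the genes tested, 0.884% had a lower coefficient, and the median gene had 26.5%. These genes were of any level and were not matched to Ptpn6, which exceeded 98.8% of them in TPM. Fcgr2b at 10.3% and Cd22 at 11.4% also varied little among the KO mice, whereas Cd72 at 32.1%, Ptpn22 at 39.5%, Pirb at 56.0% and Fcrl5 at 85.6% varied more than the median gene. Without KO replicate 6 the coefficient of Pirb was 31.5% and that of Fcrl5 32.8%.

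Inpp5d encodes SHIP-1, which removes a phosphate from the lipid that phosphoinositide 3-kinase makes. It was at 397.5 and 383.2 CPM in ZBTB38 WT, at 512.8 and 534.2 in HET and at 235, 337 and 438 (lowest, median, highest) in KO. In CPM both HET libraries lay above every WT and every KO library, both WT libraries lay within the KO range, and the lowest value was that of KO replicate 6. In TPM, KO replicate 2 at 204.1 lay above both HET libraries, at 192.9 and 196.5. In bulk RNA, fewer cells of a type and less RNA per cell cannot be told apart, here and in the results that follow.

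Ptpn22, a phosphatase that works with the kinase CSK to restrain Src family kinases and that is best known in T cells, was at 42.7 and 28.6 CPM in ZBTB38 WT, at 14.9 and 10.7 in HET and at 14.1, 27.4 and 42.2 (lowest, median, highest) in KO. Pirb, a receptor for MHC class I that is abundant on myeloid cells as well as B cells, was at 47.2 and 62.3 CPM in WT, at 27.6 and 18.5 in HET and at 21.7, 36.7 and 96.0 in KO. Fcrl5, a receptor known from marginal zone and B-1 cells, was at 20.1 and 13.7 CPM in WT, at 10.99 and 6.80 in HET and at 9.30, 18.3 and 66.2 in KO. All 3 genes were lower in both HET libraries than in both WT libraries, and the KO libraries spanned the gap between these groups. KO replicate 6 was the highest of all libraries for Pirb and Fcrl5. The myeloid, T cell and naive B cell marker sums were also lowest or near lowest in HET (94.9 to 107, 195 to 199 and 781 to 782 CPM, as given above), and the naive sum was highest in KO replicate 6, at 1554 CPM. The part of these cells in the levels of Ptpn22, Pirb and Fcrl5 was not tested. Pirb shares sequence with its activating relatives of the Pira family, between which its reads can be split.

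**Figure D2:**
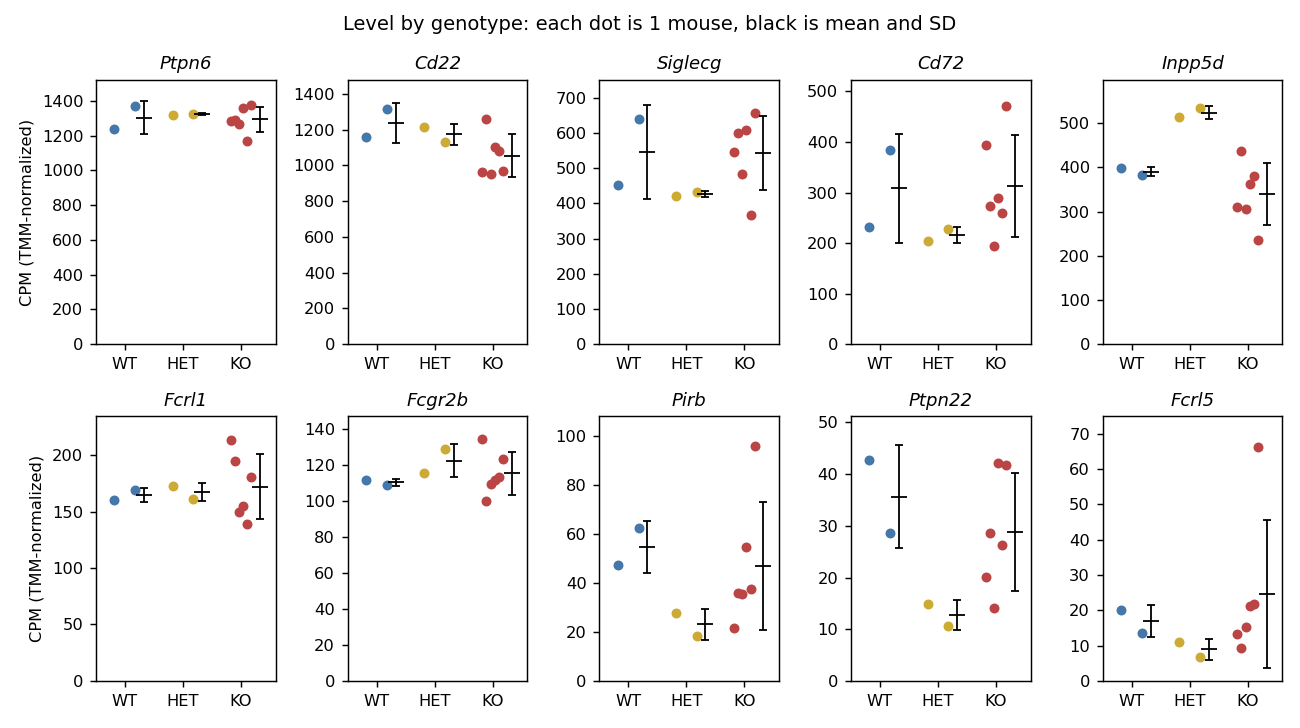
TMM-normalized CPM of the 10 genes by genotype, each dot 1 mouse (2 WT, 2 HET and 6 KO), with the mean and SD in black. Ptpn6 stays between 1172 and 1379 CPM in all mice, both HET dots of Inpp5d (512.8 and 534.2) sit above all others, and the HET dots of Ptpn22, Pirb and Fcrl5 sit below both WT dots.

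**Figure D3:**
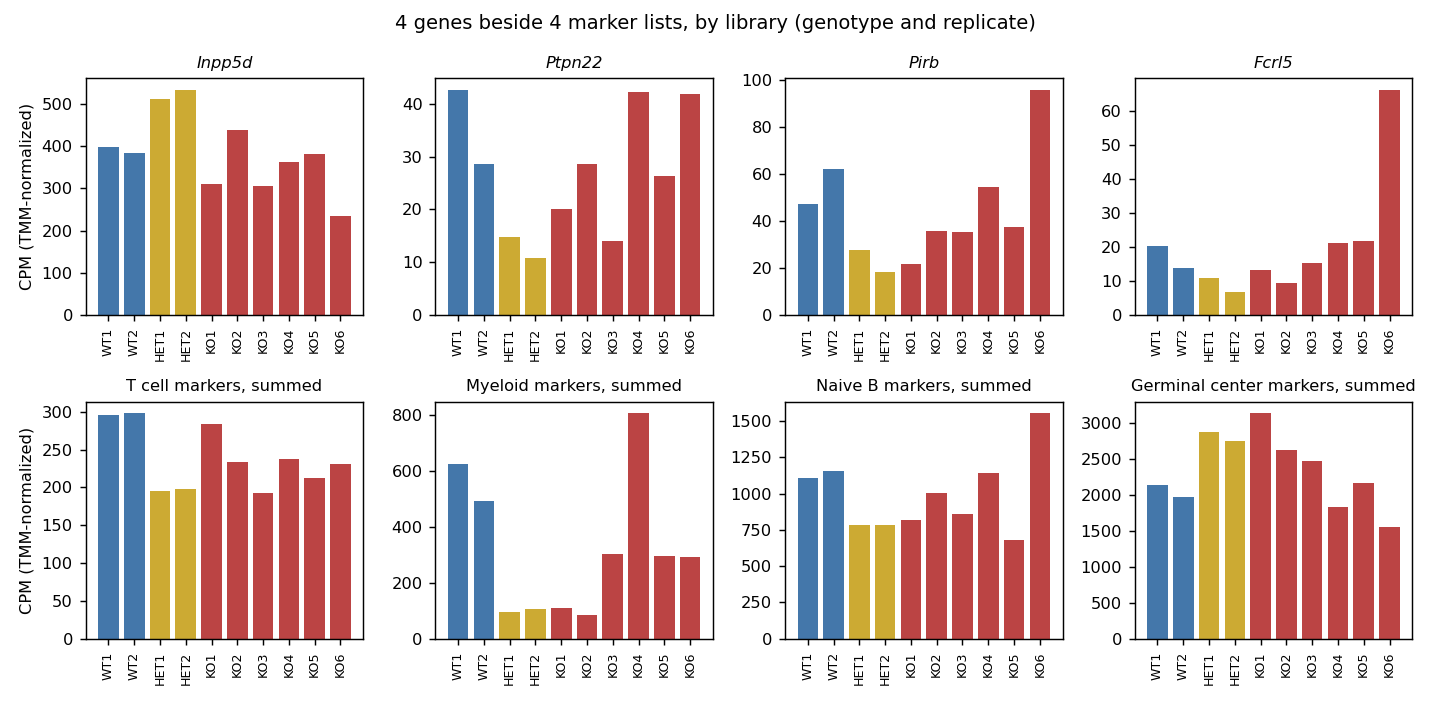
CPM of Inpp5d, Ptpn22, Pirb and Fcrl5 (upper row) and summed CPM of 4 marker lists (lower row) in each of the 10 libraries, WT in blue, HET in yellow and KO in red. The HET libraries are low for Ptpn22, Pirb and Fcrl5 and for the T cell, myeloid and naive B cell sums, and KO replicate 6 has the highest Fcrl5 (66.2 CPM) and the highest naive sum (1554 CPM).

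The comparison of ZBTB38 WT with KO sets floxed alleles without Cre against loss of both alleles with Cre. In it 0 of the 10 genes passed the threshold of the study (adjusted p under 0.1, here from the quasi-likelihood test of edgeR and adjusted over all genes by the method of Benjamini and Hochberg). At an unadjusted p under 0.05 the count was also 0, and DESeq2 and limma on log2(TPM + 1) called 0 as well. The background was low: 0.00704% of 14203 genes were called, which is Zbtb38 alone, and 2.19% had an unadjusted p under 0.05. Zbtb38 itself was lower in KO by 2.31 on the log2 scale (SE 0.274, edgeR adjusted p = 0.0734), lower in 6 of 6 KO libraries than in both WT libraries. The median log2 fold change (KO over WT) of the 10 genes was -0.00995, beside 0.0141 for all genes tested.

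The intervals show which differences between WT and KO these mice leave possible. For Ptpn6 the log2 fold change was -0.01 (SE 0.118, 95% interval -0.27 to 0.25), which corresponds to a KO level between 0.828 and 1.19 of the WT level. For Fcgr2b it was 0.06 (95% interval -0.25 to 0.38) and for Fcrl1 0.06 (-0.32 to 0.45). Cd22 had a mean of 1237 ± 112 CPM (SD, n = 2) in WT and 1055 ± 120 CPM (SD, n = 6) in KO, a log2 fold change of -0.23 (95% interval -0.54 to 0.08). The other receptors of the group had wider intervals. For Siglecg the change was -0.01 (-0.49 to 0.47), for Cd72 0.02 (-0.65 to 0.70), for Pirb -0.22 (-1.20 to 0.75) and for Fcrl5 0.54 (-0.89 to 1.96). Inpp5d was at 390 ± 10.1 CPM (SD, n = 2) in WT and 339 ± 70.3 CPM (SD, n = 6) in KO, a change of -0.20 (-0.65 to 0.24), and Ptpn22 had a change of -0.31 (-1.14 to 0.53). For Pirb, Ptpn22 and Fcrl5 a difference of 2-fold in at least 1 direction stayed within the interval, so these data do not show that the levels are alike. The edgeR adjusted p was 0.999 for all 10 genes.

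Pooling WT with HET as 4 control libraries, as the study did to gain power, gave a lower mean for Inpp5d in KO, 339 ± 70.3 CPM (SD, n = 6) against 457 ± 77.6 CPM (SD, n = 4). The log2 fold change was -0.43 (SE 0.163, 95% interval -0.78 to -0.07), and it did not pass the test (edgeR adjusted p = 0.744, and 0.474 to 0.764 over the alternatives that keep all libraries). The direction was not uniform, since the 2 WT libraries at 397.5 and 383.2 CPM lay inside the KO range and below KO replicate 2 at 437.8 CPM. Without HET replicate 1 the change was -0.37, without HET replicate 2 it was -0.35, and with counts scaled by transcript length it was -0.33, and in these fits, as by limma, the unadjusted p was above 0.05. In this comparison 0 of the 10 genes were called by edgeR, DESeq2 or limma, beside 0.00749% of 13347 genes, again Zbtb38 alone. Inpp5d was the 1 gene of 10 with an unadjusted p under 0.05, beside 6.3% of all genes.

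Among the other 9 genes, Cd22 had a log2 fold change of -0.19 (95% interval -0.41 to 0.03) and Fcrl5 of 0.93 (-0.17 to 2.02) between the pooled controls and KO. It was -0.02 (-0.20 to 0.16) for Ptpn6, -0.01 (-0.24 to 0.21) for Fcgr2b and 0.05 (-0.22 to 0.33) for Fcrl1. Siglecg had 0.16, Cd72 0.26, Pirb 0.27 and Ptpn22 0.25, each with an interval that held 0. The median of the 10 genes was 0.108, beside 0.0233 for all genes tested.

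HET and KO mice both carry Vav-Cre and differ in whether 1 or both alleles are deleted. Between them Inpp5d had a lower mean in KO, and Ptpn22, Pirb and Fcrl5 had higher means. By edgeR 0 of the 10 genes were called, beside 0.00697% of 14354 genes, and 4 had an unadjusted p under 0.05, beside 10.2% of all genes. The deleted gene Zbtb38 was itself not called here, with a log2 fold change of -1.82 (edgeR adjusted p = 0.128). Inpp5d had a log2 fold change of -0.63 (SE 0.184, 95% interval -1.03 to -0.22, edgeR adjusted p = 0.355). In CPM, though not in TPM, it was below both HET libraries in 6 of 6 KO libraries. Ptpn22 was at 28.8 ± 11.4 CPM (SD, n = 6) in KO and 12.8 ± 2.93 CPM (SD, n = 2) in HET, with a log2 fold change of 1.17 (SE 0.406, 95% interval 0.28 to 2.06, edgeR adjusted p = 0.395). Its lowest KO library, at 14.1 CPM, was below HET replicate 1 at 14.9 CPM. DESeq2 called both genes at its adjusted p under 0.1, 0.0679 for Inpp5d and 0.0897 for Ptpn22. It called 458 of 14354 genes in all, so these calls depend on the tool. Pirb and Fcrl5 had log2 fold changes of 1.02 and 1.46 (edgeR adjusted p = 0.489 for both). Without KO replicate 6 these were 0.69 and 0.86. The T cell sums of HET (195 to 199 CPM) and KO (192 to 284 CPM) overlapped, and so did the myeloid and naive sums. Most of each T cell sum was Lck. Of the other T cell markers, Trac, Trbc1 and Trbc2 were higher in every KO library than in both HET libraries, and the rest overlapped. Trac was at 2.74 and 4.78 CPM in HET and 5.09 to 15.5 in KO. These markers were picked after their values were seen. The part of such cells in the differences was not tested.

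WT and HET mice differ in Cre and in 1 deleted allele, and the 2 HET libraries of this comparison are those of the one before. Ptpn22 had a lower mean in HET, 12.8 ± 2.93 CPM against 35.6 ± 9.96 CPM (SD, n = 2 each), with a log2 fold change of -1.48 (SE 0.471, 95% interval -2.51 to -0.45, edgeR adjusted p = 0.709). Pirb had a log2 fold change of -1.25 (SE 0.544, edgeR adjusted p = 0.767), Fcrl5 had -0.92 (95% interval -2.57 to 0.72) and Inpp5d 0.42 (95% interval -0.09 to 0.93). These 2 libraries per group were low in HET for 10 of 12 myeloid, 9 of 10 T cell, 5 of 6 naive B cell and 6 of 6 plasma cell markers, and high for 7 of 7 germinal center markers. The part of these markers in the values of Ptpn22, Pirb, Fcrl5 and Inpp5d was not tested. By edgeR 0 of the 10 genes were called, beside 0.00697% of 14354 genes, and by DESeq2 0. Ptpn22 and Pirb had an unadjusted p under 0.05, 2 of 10, beside 6.42% of all genes. In a fit of the 4 WT and HET libraries alone, edgeR called 3 (Ptpn22 with an adjusted p of 0.0579, Pirb with 0.0598 and Inpp5d with 0.0741). That fit called 523 of 13220 genes in all. The gene called in both comparisons with HET was Hnrnpll, named here after its value was seen. The median log2 fold change of the 10 genes was 0.195 for KO over HET and -0.217 for HET over WT, beside 0.0679 and -0.0103 for all genes.

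**Figure D4:**
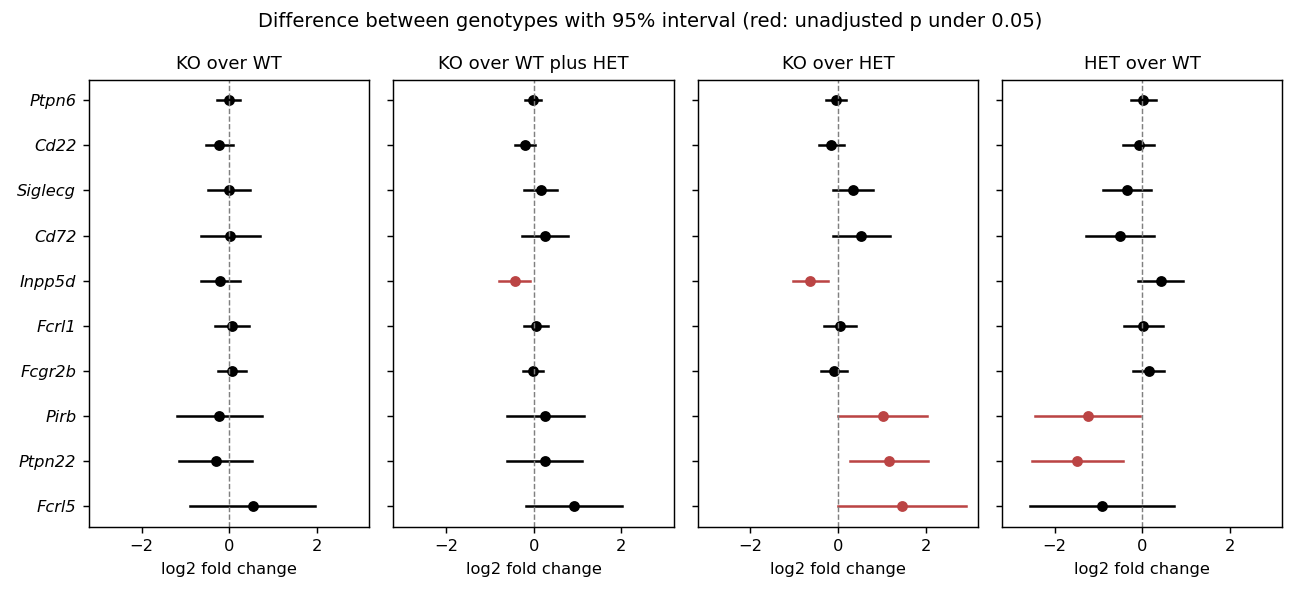
Log2 fold change of each gene in the 4 comparisons, with its 95% interval, in red where the unadjusted edgeR p is under 0.05. Intervals of Ptpn6, Fcgr2b and Fcrl1 hold 0 in all panels, Inpp5d is at -0.43 and -0.63 for KO over the pooled controls and over HET, and Ptpn22 is at 1.17 for KO over HET and -1.48 for HET over WT.

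The transcripts of a gene decide which protein it makes, and for Fcgr2b the KO range of the long form held all WT and HET libraries. Fcgr2b is spliced with or without an exon of 141 bases in its cytoplasmic tail (chr1:170963325-170963465 in GRCm38, minus strand, exon 8 of 10 of ENSMUST00000159969.7). The form with the exon, known as b1, is the main form described in B cells and is held at the surface, and the form without it is internalized and is described mainly in myeloid cells. The exon begins and ends as follows, shown because it is the sequence that separates the forms.
Fcgr2b insert, first bases (chr1:170963436-170963465): ctctcccaggaaaccctgatcacagggaaa
Fcgr2b insert, last bases (chr1:170963325-170963354): ctggactggagccaacaagcagcagcccat

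Transcripts with a coding length of 1023 bases, which hold the insert, made up 42.1% and 44.3% of the TPM of Fcgr2b in ZBTB38 WT, 45.1% and 46.3% in HET and 41.0% to 48.7% in KO. The transcript without it, with a coding length of 882 bases, made up 50.04% and 46.1% in WT, 51.4% and 49.2% in HET and 42.2% to 52.9% in KO. The share with the insert was higher in both HET libraries than in both WT libraries, and the KO range held all 4. Another form, ENSMUST00000159688.1 (coding length 939 bases), made up 7.82% and 9.57% in WT, 3.50% and 4.53% in HET and 6.12% to 9.10% in KO, with both HET libraries below all others, and it was picked after its values were seen. Shares of transcripts are Salmon's estimates among transcripts with common exons and were not tested.

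Ptpn6 has alternative first exons that give SHP-1 different amino termini, and 1 form made up nearly all of it. ENSMUST00000112484.9 made up 91.7% to 92.1% of the TPM in ZBTB38 WT, 91.6% to 92.6% in HET and 90.5% to 93.7% in KO, and the form with a coding length of 1794 bases made up between 4.05% and 5.69% in all libraries. The start of each is shown with its ATG in capitals, because the codons after it are what differ before the sequences rejoin at tggtttcaccgg. Both lie on the minus strand of chromosome 6 in GRCm38, across the first pair of exons.
Ptpn6 start of ENSMUST00000112484.9 (within chr6:124732839-124732953): ATGgtgaggtggtttcaccgggacctcagc
Ptpn6 start of ENSMUST00000004377.14 (within chr6:124732845-124738512): ATGttgtcccgcgggtggtttcaccgggac

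Inpp5d is made as long transcripts of SHIP-1 and shorter ones. ENSMUST00000169754.7, with a coding length of 3576 bases, made up 41.5% and 40.3% of its TPM in ZBTB38 WT, 42.8% and 40.1% in HET and 36.1% to 54.5% in KO, with the highest share in KO replicate 6. A shorter transcript, ENSMUST00000167032.1 (coding length 2787 bases), was at 7.87 and 9.27 TPM in WT, at 7.04 and 6.42 in HET and at 0, 0.0414, 0, 4.17, 2.21 and 0 in KO replicates 1 to 6. All 4 control libraries lay above all 6 KO libraries. This transcript was picked after its values were seen, so the gap was not tested. Another, ENSMUST00000170300.7 (coding length 2604 bases), stood at 5.28, 5.96 and 4.88 TPM in KO replicates 1 to 3, at 1.49 in KO replicate 4 and at 0 in the other KO replicates, at 0.233 and 2.91 in HET and below 0.01 in WT. Salmon divides reads between such overlapping transcripts, and a value of 0 can come from that division.

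**Figure D5:**
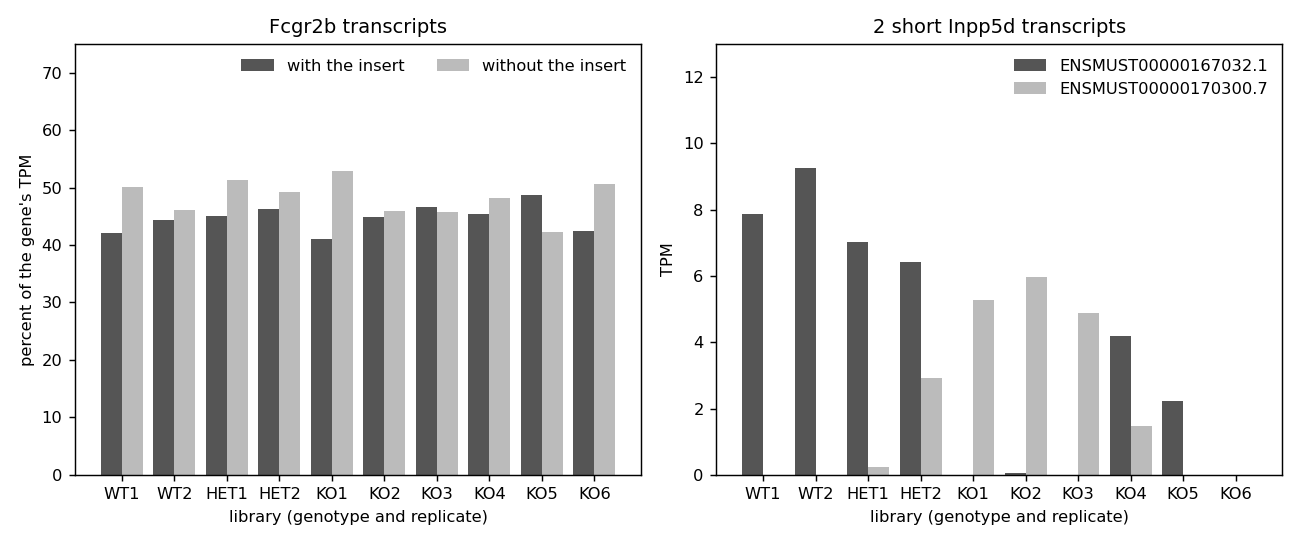
Left, percent of the TPM of Fcgr2b from transcripts with the insert (dark) and without it (light) in each library; right, TPM of the Inpp5d transcripts ENSMUST00000167032.1 (dark) and ENSMUST00000170300.7 (light). The Fcgr2b shares lie between 41.0% and 52.9% in all libraries, and the dark Inpp5d bars are 6.42 to 9.27 TPM in WT and HET and at most 4.17 in KO.

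Of Ptpn22, the transcript with a coding length of 2409 bases made up 78.6% and 74.0% in WT, 88.1% and 94.8% in HET and 64.9% to 82.8% in KO, with both HET libraries above all others, a gap picked after its values were seen and not tested. Transcripts of Cd22 with the full coding length of 2607 bases made up 71.1% to 82.4% of its TPM in KO, 76.1% to 79.8% in ZBTB38 WT and 79.1% to 80.1% in HET. Fcrl5 was read almost wholly from transcripts with a coding length of 1791 bases, at 98.9% or more in every library. The most abundant transcript of Cd72 made up 33.5% to 34.9% in WT, 35.9% to 40.3% in HET and 35.0% to 40.9% in KO, and that of Fcrl1 40.6% to 44.7%, 41.3% to 41.8% and 42.9% to 47.3%. Another transcript of Cd72, ENSMUST00000098104.9, made up 9.38% and 8.80% in WT, 12.6% and 12.4% in HET and 7.86% to 12.1% in KO, again with both HET libraries above all others, picked after its values were seen and not tested. Siglecg and Pirb were each quantified from 1 transcript.

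The neighbors of these genes in the pathway were taken from 3 lists whatever they showed, and 0 of their genes were called by edgeR in any of the 4 comparisons. Of 30 other inhibitory or accessory receptors, 2 had an unadjusted p under 0.05 between ZBTB38 WT and KO, beside 2.19% of all genes, both lower in KO. Pdcd1, which encodes the checkpoint receptor PD-1, was at 11.84 and 16.97 CPM in WT, 1.53 and 2.68 in HET and 4.37 to 7.72 in KO (log2 fold change KO over WT -1.35, SE 0.336, edgeR adjusted p = 0.999). Pecam1, an ITIM receptor on many blood cells, was at 101 and 114 CPM in WT, 61.9 and 67.6 in HET and 59.7 to 100 in KO (-0.49, SE 0.203). Between HET and KO 8 of the 30 were higher in KO at that p and 0 lower, beside 10.2% of all genes in either direction, and between WT and HET 7 were lower in HET and 0 higher, beside 6.42%. The T cell, myeloid and naive marker sums were lower in HET than in WT as given above, and their part was not tested. Btla, an inhibitory receptor of lymphocytes, was at 211 ± 5.83 CPM (SD, n = 2) in WT, 271 ± 8.79 (SD, n = 2) in HET and 227 ± 34.7 (SD, n = 6) in KO. Sit1, an adaptor that restrains antigen receptor signals, was at 12.4 and 13.3 CPM in WT, 13.3 and 14.4 in HET and 14.5 to 26.3 in KO. In CPM it was higher in 6 of 6 KO libraries than in all 4 controls (log2 fold change KO over control 0.48, SE 0.194, edgeR adjusted p = 0.744). In TPM, KO replicate 3 at 17.93 lay below WT replicate 2 at 18.77 and both HET libraries at 18.02 and 19.82.

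Of 36 other phosphatases, kinases and adaptors, 35 were analysed here, and 0 had an unadjusted p under 0.05 between ZBTB38 WT and KO. Between WT and HET 3 were lower in HET at that p and 0 higher, beside 6.42% of all genes: the adaptor Dok2, Ubash3a, which is best known in T cells, and the diacylglycerol kinase Dgka. Lyn, the kinase that phosphorylates ITIMs, was at 519 ± 2.57 CPM in WT (SD, n = 2), 541 ± 38.0 in HET (SD, n = 2) and 493 ± 49.3 in KO (SD, n = 6), a log2 fold change KO over WT of -0.07 (95% interval -0.37 to 0.22). Csk, the partner of PTPN22, had -0.03 (-0.32 to 0.26), Dok3, an adaptor that recruits SHIP-1, -0.01 (-0.34 to 0.32), and Ptpn11, which encodes SHP-2, -0.14 (-0.51 to 0.23). Against the pooled controls Ptprc and Ptpn11 had an unadjusted p under 0.05. Ptprc, which encodes CD45, was at 920 ± 77.5 CPM in KO (SD, n = 6) and 1085 ± 68.7 in the controls (SD, n = 4), a change of -0.24 (SE 0.0939, edgeR adjusted p = 0.744). For Ptpn11 the change was -0.30 (SE 0.133, edgeR adjusted p = 0.744).

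The third list held 18 ligands and genes for their synthesis, of which 17 were tested. Sema4d, which encodes CD100, the ligand of CD72, was at 437 and 454 CPM in ZBTB38 WT, at 476 and 477 in HET and at 251 to 397 in KO. Every KO library lay below all 4 controls, with a log2 fold change KO over control of -0.50 (SE 0.134, 95% interval -0.79 to -0.21, edgeR adjusted p = 0.744) and KO over WT of -0.45 (SE 0.183, edgeR adjusted p = 0.999). St6gal1, which makes the sialic acid linkage that CD22 binds, was at 369 ± 52.3 CPM in WT (SD, n = 2) and 307 ± 46.8 in KO (SD, n = 6), a change of -0.26 (95% interval -0.64 to 0.11). Cmah, which makes the form of sialic acid preferred by mouse CD22, had 0.05 (-0.51 to 0.61). St3gal6, another sialyltransferase, was at 36.4 ± 13.9 CPM in KO and 23.1 ± 4.56 in the controls, a change of 0.66 (SE 0.258, edgeR adjusted p = 0.744), with KO replicate 6 highest at 62.5 CPM.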

How the data were processed

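Genotypes and replicate numbers were taken from the sample titles. Per the labels, reads were quantified with Salmon 0.9.1, and per the study's methods against Gencode vM17. The authors deposited, for each of 64019 transcripts per library, an estimated count that is not normalized and need not be whole (46.8% of values are not whole), and the authors also deposited TPM, which accounts for transcript length and library total. Estimated counts were summed per gene by the Ensembl gene ID in the transcript name and rounded, and genes were named by the symbol given there. Unstranded full-length cDNA from small samples and reads shared between paralogs can affect these values. Genes were filtered with filterByExpr, normalized by TMM and tested with edgeR 4.0.16 (quasi-likelihood F-test, Benjamini-Hochberg adjustment over all genes, threshold 0.1 as in the study) in R 4.3.3. WT against KO and WT plus HET against KO were fitted on their own libraries, and comparisons of HET with KO or WT in a joint model of the 10 libraries in which each genotype has its term. Standard errors are the log2 fold change over the root of F, and 95% intervals use the t distribution. The fits were tested on simulated data. With 2 mice in a group the spread comes mainly from the other group.

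The members and lists were chosen with earlier results of these data known, so no p was adjusted over a list and no set test was made. Named genes are the 10 members, Zbtb38, 8 pathway genes fixed by name, and in the comparisons of WT, or of WT plus HET, with KO up to 2 genes a list with the smallest unadjusted p under 0.05, and some items are not reported here. Alternatives were DESeq2 1.42.0, its size factors in edgeR, limma 3.58.1 on log2 TPM values with a pseudocount of 1 or 0.1, length-scaled counts, a filter of at least 10 counts per library or none, immunoglobulin genes left out, a threshold of 0.05, another set of libraries in the fit, a replicate block and each library left out. Motifs were searched in translated Gencode vM21 coding sequences of GRCm38 (identical transcript version and length), a source chosen after the files were seen, and the member transcripts numbered 50. Libraries of a genotype differed by more than sampling noise (chi-square per gene 27.8 to 170), so each counts as 1 sample. A count of 0 allows up to 3 counts, for counting error only.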

Additional observations from a re-analysis of the deposited data

Results flagged for a closer look

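Among the 6 ZBTB38 KO libraries, Fcrl5 was at 66.2 CPM in KO replicate 6, and its gap to the nearest library made up 0.782 of the range of the group, above the 95% critical value of Dixon's test for 6 samples. The other KO libraries lay between 9.30 and 21.7 CPM. This was 1 of 10 genes checked, and chance alone flags about 1 in 20 groups. The same library had the highest Pirb (96.0 CPM) and the lowest Inpp5d (235 CPM) of all libraries, the highest naive B cell marker sum (1554 CPM) and the lowest germinal center marker sum (1557 CPM). Their part in the Fcrl5 value was not tested.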

How the results depend on the processing

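Under every alternative to the comparisons of ZBTB38 KO with WT and with WT plus HET, 0 of the 10 genes were called, and the lowest adjusted p of any of them was 0.401 and 0.474 with all libraries kept. DESeq2 called 2 in HET against KO, beside 458 of 14354 genes in all. The fit of the compared libraries alone called 3 in WT against HET, beside 523 of 13220 genes in all. The order of the levels was the same for 10 of 10 genes in CPM per kilobase.

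The number of all genes called, 1 in each comparison with KO, was less stable. For WT against KO it was 6 by DESeq2, 0 and 3 by limma with pseudocounts of 1 and 0.1, 0 with length-scaled counts, 0 at a threshold of 0.05 and 2 in a fit of all 10 libraries. For WT plus HET against KO it was 18 by DESeq2, 0 by limma with either pseudocount and 0 with length-scaled counts. With 1 library left out it was 0 to 2 and 1 to 2, and for WT against KO it was 0 without WT replicate 1 or 2 or KO replicate 1, 3, 4 or 5.

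Directions turned for small values and for some larger ones. Fcrl5 was at 0.54 for KO over WT and at 0.93 against the pooled controls, and Pirb at 0.27 against the pooled controls. These values turned with the replicate block given below. By limma on TPM, where the median of all genes moved from 0.01 to -0.11 or -0.16 for KO over WT, the values of Cd72, Fcgr2b and Fcrl1 were -0.14, -0.09 and -0.10 with both pseudocounts, and that of Fcrl1 was -0.09 against the pooled controls. The same replicate number did not make libraries deviate together (correlations of -0.014 to 0.118), so the numbers do not pair them. Replicate numbers 3 to 6 occur only in KO, so a fit with a replicate block compares the genotypes in replicates 1 and 2 alone. With this block the number of genes called was 6 for WT against KO and 0 for WT plus HET against KO. It was 4 for HET against KO and 66 for WT against HET, beside 1 in each without the block. With the block Siglecg had 0.09, Fcrl5 -0.58 and Pirb -0.96 (edgeR adjusted p = 0.401, unadjusted p under 0.05) for KO over WT, Pirb 0.28 and Fcrl5 0.36 (edgeR adjusted p = 0.776 and 0.657, unadjusted p above 0.05) for KO over HET, and Fcgr2b had 0.01, Pirb -0.47 and Fcrl5 -0.18 against the pooled controls.

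With each library left out in turn, KO over WT ranged from -0.29 to 0.43 for Cd72, -0.08 to 0.06 for Ptpn6, -0.24 to 0.26 for Siglecg, -0.01 to 0.12 for Fcrl1, -0.06 to 0.84 for Fcrl5, -0.57 to 0.01 for Ptpn22 and -0.56 to -0.01 for Pirb. Against the pooled controls the ranges were -0.06 to 0.04 for Fcgr2b, -0.05 to 0.0029 for Ptpn6, -0.07 to 0.59 for Pirb and -0.02 to 0.10 for Fcrl1. There Fcrl5 had 0.32 without KO replicate 6 and 1.23 without WT replicate 1, Ptpn22 had 0.01 without HET replicate 2 and 0.68 without WT replicate 1, and Cd72 had 0.10 without KO replicate 6 and 0.50 without WT replicate 2. For KO over HET that of Fcrl1 was -0.02 to 0.10, and for HET over WT those of Cd22, Ptpn6 and Fcrl1 were -0.17 to 0.02, -0.05 to 0.10 and -0.02 to 0.07. The count of genes with an unadjusted p under 0.05 in HET against KO was 4, and it was 2 without HET replicate 1 or KO replicate 4, 1 without HET replicate 2, 3 without KO replicate 5 and 5 without KO replicate 3. In WT against HET it was 2, and 0 without WT replicate 1 or HET replicate 2 and 1 without WT replicate 2 or HET replicate 1. The causes were not tested. With 2 mice per control group, only differences larger than the distance from estimate to interval end could reach an unadjusted p under 0.05. Calls at the adjusted threshold needed larger differences.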
